A study of Mus musculus with 6 samples.

Results

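10 transcription factor genes that set brown adipocyte fate and drive fat cell differentiation were read from a bulk RNA-seq table of mouse interscapular brown fat. They are Prdm16, Ebf2, Ebf1, Zic1, Lhx8, Tbx15, Pparg, Cebpa, Cebpb and Cebpd, taken by gene symbol, and all 10 were found among the 19241 genes listed. Their levels did not enter the choice. The tissue was the whole interscapular depot of newborn Mus musculus, with 3 libraries labelled WT from mice of the genotype Fstl1-floxed and 3 labelled KO from mice of the genotype Myf5-Fstl1 KO. The floxed Fstl1 gene is thus the control state, and the deletion of Fstl1, which encodes a secreted glycoprotein, is aimed by the labels at the Myf5 lineage, the source of skeletal muscle and of many cells of this depot. The labels name no treatment, no strain and no sex. They do not say whether each library came from 1 animal or from pooled animals, so the p-values measure the spread between these libraries.

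Brown adipocytes arise from mesodermal precursors in which EBF2 and PRDM16 open and hold the brown gene programme, while C/EBPβ and C/EBPδ act early in adipogenesis and hand over to PPARγ and C/EBPα, which sustain each other's expression and the mature fat cell. Zic1 and Lhx8 are widely used as marks of classical brown fat, as opposed to white fat, and Tbx15 marks particular fat depots and muscle. In KO relative to WT, Prdm16, Ebf2 and Cebpb had the lower values in every KO library, Cebpd had the higher values in every KO library, and the other 6 genes overlapped between the groups. Of the 10 genes, 0 passed the threshold of an adjusted p of 0.05 (limma, Benjamini-Hochberg over all 13331 tested genes), where 2.21% of all tested genes passed, 1.01% as lower and 1.21% as higher in KO. At an unadjusted p under 0.05, 3 of the 10 were lower and 1 was higher, against 8.6% and 10.6% of all tested genes, or 19.2% in either direction. The groups did not overlap in 3 genes with lower KO values and in 1 with higher KO values, against 11.4% and 13.6% of all tested genes, or 24.9% in either direction. All 10 had a mean of at least 0.5 FPKM (fragments scaled to transcript length and to the mapped fragments of the library) and were tested. The median log2 fold change of the 10 genes was −0.21, beside 0.01 for all tested genes.

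3 upstream sequences of the adipogenic core are shown because Cebpb separated the groups while Cebpa and Pparg did not. Each is the stretch of 250 bases upstream of a RefSeq start in GRCm38.p6, printed 5′ to 3′ on the gene's strand, which is the plus strand for all 3. Capitals mark matches on either strand to the C/EBP motif TTGCNNAA and to TGACG, the leading letters of the cAMP response element TGACGTCA. The Cebpb stretch spans chr2:167688665-167688914, that of Cebpa chr7:35119043-35119292, and the Pparg stretch, before the most downstream of its 3 listed starts, chr6:115421816-115422065.
Cebpb: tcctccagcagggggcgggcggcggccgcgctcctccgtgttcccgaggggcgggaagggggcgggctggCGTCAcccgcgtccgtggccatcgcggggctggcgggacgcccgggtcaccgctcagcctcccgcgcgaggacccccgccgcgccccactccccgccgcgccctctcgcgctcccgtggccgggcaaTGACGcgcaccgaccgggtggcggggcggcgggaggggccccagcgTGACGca
Cebpa: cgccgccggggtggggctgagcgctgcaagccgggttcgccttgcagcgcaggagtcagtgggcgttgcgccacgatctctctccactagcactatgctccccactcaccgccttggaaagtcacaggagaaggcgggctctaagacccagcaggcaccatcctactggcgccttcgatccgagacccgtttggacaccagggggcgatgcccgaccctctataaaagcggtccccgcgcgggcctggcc
Pparg: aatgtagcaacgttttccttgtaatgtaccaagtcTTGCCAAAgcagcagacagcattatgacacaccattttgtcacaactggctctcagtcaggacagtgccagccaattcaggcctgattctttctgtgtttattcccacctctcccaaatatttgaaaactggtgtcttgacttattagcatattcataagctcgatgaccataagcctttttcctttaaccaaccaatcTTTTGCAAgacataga
The Cebpb stretch held 3 matches to TGACG, at 180, 53 and 7 bases upstream of the start, and 0 to the C/EBP motif. The Pparg stretch held 2 matches to the C/EBP motif, at 215 and 16 bases upstream, and the 250 bases before each of the other 2 Pparg starts held 0. The Cebpa stretch held 0 exact matches to either motif. Near matches, such as ttgcgcca in the Cebpa stretch, were not counted, so 0 does not mean that a C/EBP site is absent. Among 32851 upstream stretches of the same length, 9.56% held TTGCNNAA and 17.77% held TGACG. The full element TGACGTCA, which contains TGACG and was in 1.55% of all stretches, was in 0 of the 3. These matches describe letters in a window, and the part of base content in them was not tested. The Cebpb stretch was 81.6% G or C, that of Cebpa 66.4% and that of Pparg 40.8%, against a median of 52.4% over all stretches. Sequences were listed for 7 of the 10 genes, and Ebf2, Tbx15 and Cebpd were not among them.

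Before the results, the state of the libraries bears on every comparison. In KO, Fstl1 itself had a log2 fold change of −2.79 in limma (adjusted p 0.00979), with 54.4 to 130 FPKM in WT libraries and 7.93 to 13.1 in KO libraries. Xist was at 44.8 to 85.5 FPKM in WT and at most 0.92 in KO, and the Y-linked Eif2s3y was at 83.7 to 99.3 FPKM in KO and at most 0.08 in WT. Genotype and sex therefore coincide in these libraries, and their parts in any difference below cannot be told apart. Estimated depth was 13750000 to 15050000 reads per library, and values correlated at 0.983 to 0.991 within groups. All 10 brown adipocyte markers were present, with summed levels of 22237 to 28579 FPKM in WT and 21899 to 24024 in KO. Fabp4 made up most of each sum, at 14059 to 17389 FPKM in WT and 13999.9 to 15846 in KO. The marker list was chosen with earlier results of these data known, so its counts are no independent support. Of these markers, 3 of 10 were called lower in KO and 0 higher, against 1.01% and 1.21% of all tested genes. The 3 were Otop1, Plin1 and Plin5 at 35.2%, 37.9% and 39.0% of the WT mean (limma, adjusted p 0.0243, 0.0267 and 0.0435). With Ucp1, 4 of the markers did not overlap between the groups, against 24.9% of all tested genes. Their part in the differences of the 10 transcription factor genes was not tested. In a bulk sample, fewer cells of a type and less RNA per cell cannot be told apart. KO replicate 1 stood apart in skeletal muscle, where 10 markers summed to 389 FPKM, against 1469 to 2159 in the other 5 libraries.

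Prdm16 (Entrez gene 70673, chr4:154316122-154637360, minus strand) encodes a zinc finger coregulator that binds PPARγ and C/EBP proteins and holds the brown over the muscle programme. WT replicates 1 to 3 held 5.25, 4.91 and 4.13 FPKM, and KO replicates 1 to 3 held 3.0, 1.89 and 1.68 FPKM. Every KO library lay below every WT library, and KO replicate 1 was the KO library nearest to WT. On average WT held 4.76 ± 0.574 FPKM (SD, n = 3) and KO 2.19 ± 0.709, so that 46.0% of the WT mean remained in KO. In limma the log2 fold change came to −0.87 ± 0.19 (SE), with a 95% confidence interval of −1.29 to −0.45 and an adjusted p of 0.0519. This is on the scale of log2(FPKM + 1), and because Prdm16 is low the pseudocount of 1 shrinks it: the plain ratio gives −1.16. The threshold was missed narrowly, and it was passed with quantile normalization, median-of-ratios scaling, robust eBayes and array weights. It was also passed without KO replicate 1, where the log2 fold change came to −1.05 (limma, adjusted p 0.0456). With array weights, 23.9% of all tested genes passed. An estimated 210 to 640 reads stood behind each value.

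Ebf2 (Entrez gene 13592, chr14:67233292-67430952, plus strand) encodes an early B cell factor of the COE family that marks brown preadipocytes and recruits PPARγ to brown genes. In the same order of replicates, WT held 51.2, 25.8 and 26.4 FPKM and KO held 21.0, 12.5 and 12.5 FPKM. The groups did not overlap, but WT replicate 1 stood nearly as far above the other WT libraries as those stood above 0. Averages were 34.5 ± 14.5 FPKM for WT and 15.3 ± 4.90 for KO (SD, n = 3), or 44.4% of the WT mean. Its log2 fold change of −1.09 (95% confidence interval −1.75 to −0.43) was the most negative of the 10 and did not pass (limma, adjusted p 0.0917). Without WT replicate 1 it came to −0.77 (limma, adjusted p 0.106). It passed with array weights, which count libraries far from their group for less, at −0.66 (limma, adjusted p 0.0492). Under those weights 23.9% of all tested genes passed.

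Ebf1 (Entrez gene 13591, chr11:44618100-45008096, plus strand), the paralogue of Ebf2 that acts in adipogenesis and in B cell development, showed no such separation. WT held 21.3, 26.7 and 12.2 FPKM and KO held 14.2, 16.7 and 17.6 FPKM. The KO values lay inside the WT range, with WT replicate 3 the lowest library of all 6. The log2 fold change was −0.24 with a 95% confidence interval of −0.81 to 0.34 (limma, adjusted p 0.653), and it was −0.01 without WT replicate 2 and −0.54 without WT replicate 3. B cell markers summed to 1.70 to 2.52 FPKM over 8 genes, with overlapping groups.

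**Figure D1:**
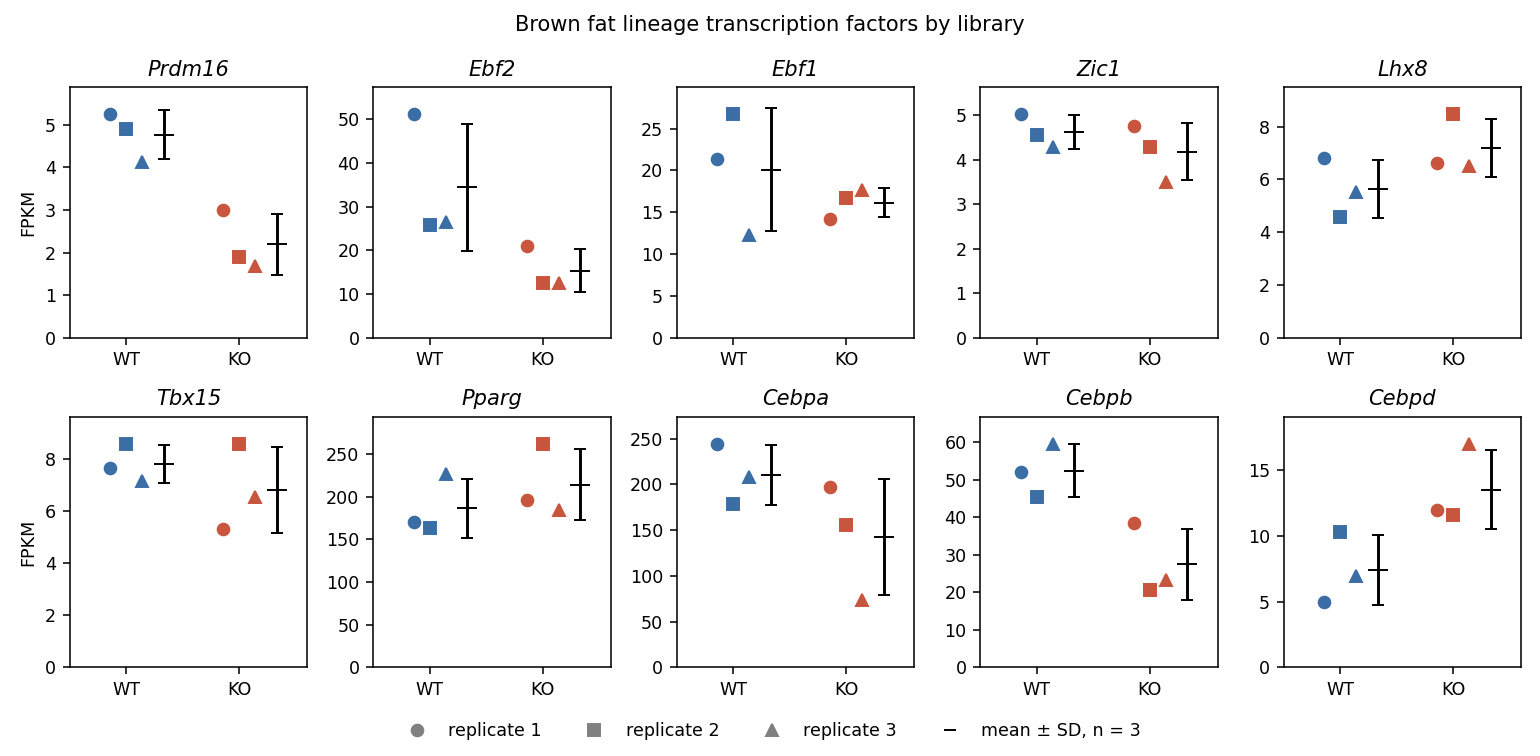
FPKM (vertical axes, from 0) of the 10 transcription factor genes in the 3 WT libraries (blue) and the 3 KO libraries (red), with the replicate shown by the symbol and the mean ± SD in black. The KO points of Prdm16, Ebf2 and Cebpb lie below all WT points, those of Cebpd lie above them, and the other 6 genes overlap.

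The 3 genes that mark position and lineage all overlapped between the groups. Zic1 (Entrez gene 22771, chr9:91358058-91365768, minus strand), a zinc finger gene used as a mark of classical brown fat, had 5.03, 4.55 and 4.28 FPKM in WT, next to 4.77, 4.29 and 3.5 FPKM in KO. Only KO replicate 3 lay below the WT range. The KO mean was 90.6% of the mean in WT, and the log2 fold change of −0.12 had a 95% confidence interval of −0.47 to 0.23 (limma, adjusted p 0.716). Leaving out KO replicate 1 gave −0.20, and leaving out KO replicate 3 gave −0.02.

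Lhx8 (Entrez gene 16875, chr3:154306288-154330560, minus strand), a LIM homeobox gene enriched in brown over white fat, had 6.8, 4.59 and 5.53 FPKM in WT, next to 6.61, 8.47 and 6.5 FPKM in KO. WT replicate 1 lay among the KO values and KO replicate 2 above all others. KO was at 128% of the WT mean, with a log2 fold change of 0.31 and a 95% confidence interval of −0.09 to 0.71 (limma, adjusted p 0.379). Leaving out WT replicate 2 gave 0.19, and leaving out WT replicate 1 gave 0.43.

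Tbx15 (Entrez gene 21384, chr3:99240348-99354260, plus strand), a T-box gene expressed in particular fat depots and in glycolytic muscle, had 7.67, 8.58 and 7.14 FPKM in WT, next to 5.31, 8.58 and 6.55 FPKM in KO. Replicate 2 held the same value in both groups, and KO replicate 1 was the lowest library. That library also had the lowest muscle marker sum, and without it the log2 fold change of Tbx15 went from −0.19 to −0.05. The part of muscle RNA in the Tbx15 values was not tested. The interval for all 6 libraries was −0.60 to 0.22 (limma, adjusted p 0.610).

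Pparg (Entrez gene 19016, chr6:115360879-115490404, plus strand), the nuclear receptor without which fat cells do not form, had among the highest levels of the 10. WT held 170, 163 and 226 FPKM and KO held 196, 262 and 185 FPKM. WT replicate 3 exceeded KO replicates 1 and 3, so the groups overlapped, with KO at 115% of the WT mean. Its log2 fold change of 0.20 had a 95% confidence interval of −0.23 to 0.62 (limma, adjusted p 0.604), and leaving out KO replicate 2 gave 0.05, leaving out WT replicate 3 0.35. The deposited value pools 4 RefSeq transcripts, so the isoforms that start at different promoters cannot be told apart.

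Cebpa (Entrez gene 12606, chr7:35119293-35121928, plus strand), which encodes the leucine zipper partner of PPARγ in the mature fat cell, had 244, 178 and 208 FPKM in WT, next to 198, 156 and 73.4 FPKM in KO. KO replicates 2 and 3 lay below the WT range and KO replicate 1 inside it. The means were 210 ± 33.2 FPKM (SD, n = 3) and 142 ± 63.2 FPKM, and KO replicate 3 set much of the difference. With all libraries the log2 fold change was −0.66 with a 95% confidence interval of −1.39 to 0.07 (limma, adjusted p 0.306), and without KO replicate 3 it was −0.25.

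Cebpb (Entrez gene 12608, chr2:167688915-167690432, plus strand), which encodes an early adipogenic factor that also acts at cAMP-responsive brown fat genes, had 52.0, 45.5 and 59.6 FPKM in WT, next to 38.4, 20.7 and 23.3 FPKM in KO. Every KO library lay below every WT library, and KO replicate 1 was again nearest to WT. The means were 52.4 ± 7.06 FPKM in WT and 27.5 ± 9.59 in KO (SD, n = 3), or 52.4% of the WT mean. In limma the log2 fold change came to −0.95 ± 0.23 (SE), with a 95% confidence interval of −1.47 to −0.43 and an adjusted p of 0.0674. It passed in 3 of 17 alternatives. They were array weights, where 23.9% of all tested genes passed, and a filter at a mean of 5 FPKM (limma, adjusted p 0.0495). The third was the fit without KO replicate 1, where it came to −1.21 (limma, adjusted p 0.0326).

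Cebpd (Entrez gene 12609, chr16:15887286-15889545, plus strand), the other early C/EBP gene, which glucocorticoids induce during adipogenesis, went the other way. WT held 4.98, 10.3 and 6.92 FPKM and KO held 12.0, 11.6 and 17.0 FPKM. The groups did not overlap, though WT replicate 2 came close to KO replicate 2. Averages were 7.38 ± 2.67 FPKM for WT and 13.5 ± 3.01 for KO (SD, n = 3), or 183% of the WT mean. Its log2 fold change of 0.82 had a 95% confidence interval of 0.27 to 1.38 and did not pass (limma, adjusted p 0.118), nor did it in any of the 17 alternatives. For each of the 4 genes whose groups did not overlap, an exact two-sided permutation test over the libraries gave p = 0.1, the smallest that 3 against 3 allows.

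Strand handling is not given in the sources used here, and exons of 6 of the 10 genes overlap a gene on the opposite strand in GENCODE vM21. For Prdm16, Ebf2 and Cebpa the partner, sharing up to 109, 227 and 51 bases, is not in the table, so its level could not be read. For 3 of the 6 genes the partner is also in the table. Tmem189, which shares up to 312 bases of an exon with Cebpb, was at 24.6 ± 3.71 FPKM (SD, n = 3) in WT and 20.9 ± 3.88 in KO. Spidr, which shares up to 562 bases with Cebpd, was at 3.25 ± 0.661 FPKM in WT and 3.70 ± 0.356 in KO. Zic4, which shares up to 60 bases with Zic1, was at 0.517 ± 0.0929 FPKM in WT and 0.483 ± 0.0961 in KO. All 3 partners overlapped between the groups.

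**Figure D2:**
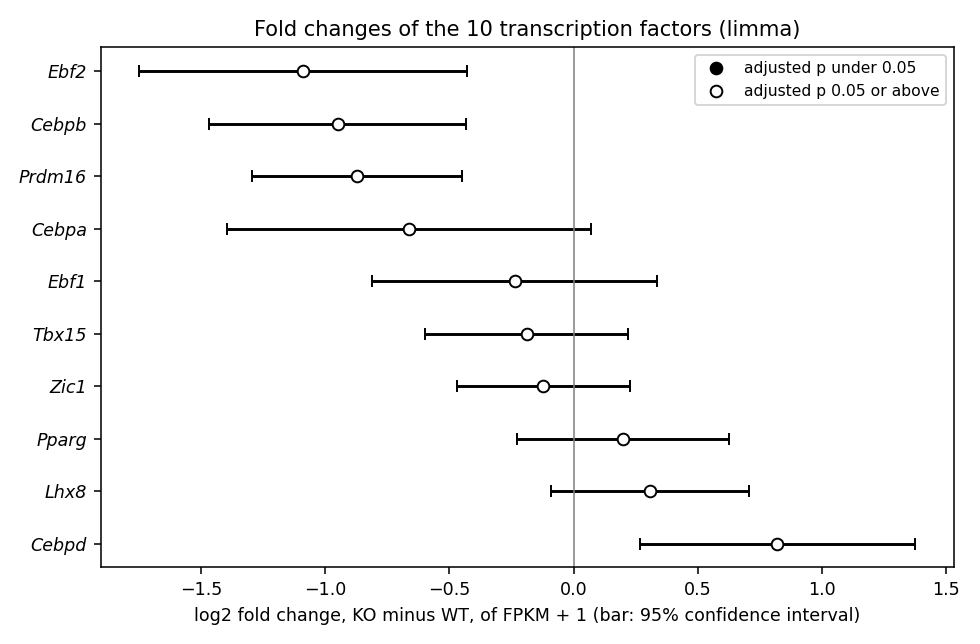
Log2 fold change of FPKM + 1, KO minus WT (horizontal axis), of the 10 genes in limma, with 95% confidence intervals as bars and open circles for genes with an adjusted p of 0.05 or above. All 10 circles are open, and the intervals of Ebf2, Cebpb, Prdm16 and Cebpd leave out 0.

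FPKM is scaled to transcript length, so levels can also be ordered between genes. In WT, Cebpa (210 FPKM) and Pparg (186) stood highest with overlapping ranges, followed by Cebpb (52.4), Ebf2 (34.5) and Ebf1 (20.1). Ebf2 overlapped Cebpb above it and Ebf1 below it. The other 5 genes lay between 4.62 and 7.80 FPKM on average, and each overlapped its neighbour in the order Tbx15, Cebpd, Lhx8, Prdm16 and Zic1. In KO, Pparg (214 FPKM) stood before Cebpa (142), again with overlap. Cebpb (27.5), Ebf1 (16.2), Ebf2 (15.3) and Cebpd (13.5) came next, and of these neighbours Ebf1 and Ebf2, and Ebf2 and Cebpd, overlapped. Prdm16 (2.19 FPKM) was the lowest of the 10 in all 3 KO libraries, and its range lay below that of Zic1 (4.19).

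A ratio of 2 genes within a library does not move when that library is scaled as a whole, and 5 such ratios were compared between the groups. Prdm16 per Pparg was at 0.0309, 0.0302 and 0.0183 in WT and at 0.0153, 0.00721 and 0.0091 in KO. The KO ratios were all lower, by 1.36 on the log2 scale, so that the KO ratio was 0.389 of that in WT (exact two-sided permutation p 0.1, adjusted over the 5 ratios 0.25). Cebpd per Cebpa was at 0.0204, 0.0575 and 0.0332 in WT and at 0.0606, 0.0741 and 0.231 in KO. All KO ratios were above all WT ratios, with a log2 difference of 1.58, or 2.99-fold (exact permutation p 0.1, adjusted 0.25). Without KO replicate 3, the library low in Cebpa, that difference was 0.98.

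The other 3 ratios overlapped between the groups. Ebf2 per Ebf1 differed by −0.89 on the log2 scale (exact permutation p 0.2, adjusted 0.25), and Ebf1 exceeded Ebf2 in 1 WT library and in 2 KO libraries. Pparg per Cebpa differed by 0.87 (exact permutation p 0.2, adjusted 0.25) and Cebpb per Cebpa by −0.31 (exact permutation p 0.6, adjusted 0.6). With 3 against 3, 0 of these 5 tests could reach 0.05.

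**Figure D3:**
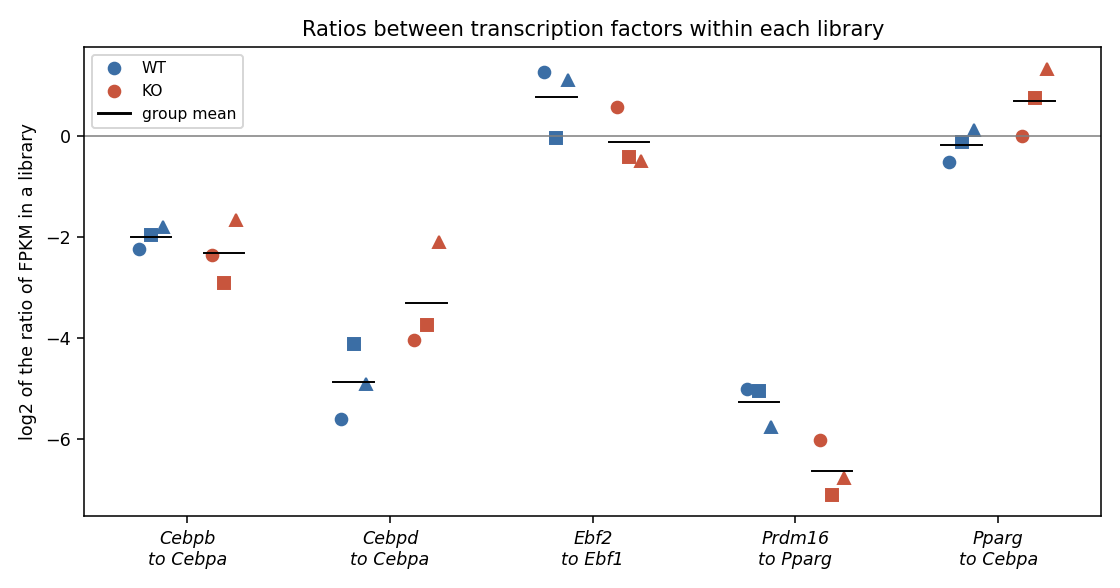
Log2 of the ratio of FPKM values between 2 genes in the same library (vertical axis) for 5 gene pairs, with WT in blue, KO in red, symbols for replicates 1 (circle), 2 (square) and 3 (triangle), and lines for group means. Only Cebpd to Cebpa and Prdm16 to Pparg separated the groups, with log2 differences of 1.58 and −1.36.

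The genes that work with these factors were followed through 4 lists. Of all tested genes, 1.01% were called lower and 1.21% higher in KO. Among 30 partners in brown fate, 29 were in the table and 25 were tested, with 0 called lower and 1 called higher. Their median log2 fold change was −0.08, and 17 lay below 0. In limma, 5 of the 25 were lower and 4 higher at an unadjusted p under 0.05, against 8.6% and 10.6% of all tested genes. The gene called was Irf4, which encodes a partner of PGC-1α in thermogenesis. It rose from 1.08, 0.72 and 0.69 FPKM in WT to 10.04, 18.0 and 199 in KO (log2 fold change 4.25 in limma, adjusted p 0.0447), and without KO replicate 3 the log2 fold change was 2.99. KO replicate 3 was also the lowest library in Cebpa and the highest in Cebpd.

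In the adipogenic cascade, with 23 of 25 genes tested, 2 genes fell and 2 rose, against 1.01% and 1.21% of all tested genes. The median was −0.13. In limma, 6 of the 23 were lower and 5 higher at an unadjusted p under 0.05, against 8.6% and 10.6% of all tested genes. Zfp423, a zinc finger gene of preadipocyte commitment, fell from 5.76, 8.48 and 5.69 FPKM in WT to 2.79, 1.88 and 2.18 in KO (log2 fold change −1.21 in limma, adjusted p 0.0236). Stat5a, which encodes a factor downstream of growth hormone and prolactin, fell from 12.8, 18.0 and 15.2 FPKM to 8.99, 6.02 and 3.94 (log2 fold change −1.20 in limma, adjusted p 0.0475). Tle3, whose product works with PPARγ and counters PRDM16, rose from 17.5, 11.7 and 14.4 FPKM to 29.8, 31.7 and 28.8 (log2 fold change 1.02 in limma, adjusted p 0.0267). Klf15, a glucocorticoid-induced regulator of metabolism in fat and muscle, rose from 2.56, 4.71 and 2.57 FPKM to 15.7, 11.2 and 40.6 (log2 fold change 2.29 in limma, adjusted p 0.0337). In all 4 genes each KO library lay outside the WT range, but they were named for passing in these libraries, so this adds no support. Of the 23 tested genes, 6 had lower and 5 had higher KO values without overlap, against 11.4% and 13.6% of all tested genes.

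Of 30 inhibitors of adipogenesis, 27 were tested and 0 were called, at a median of 0.02. At an unadjusted p under 0.05 in limma 1 inhibitor was lower and 4 were higher, against 8.6% and 10.6% of all tested genes. Of the 27, 3 had lower and 6 had higher KO values without overlap, against 11.4% and 13.6% of all tested genes. The 3 inhibitors with the smallest p, named for that p, were among the 6. Insig1, a brake on SREBP processing, was at 18.3 FPKM in WT and 32.7 in KO on average (log2 fold change 0.79 in limma, adjusted p 0.0624). The deacetylase gene Sirt1 was at 11.03 and 19.7 FPKM (limma, 0.82, adjusted p 0.0969), and Gata2, a factor that holds preadipocytes back, at 5.75 and 8.94 FPKM (limma, 0.57, adjusted p 0.111).

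Of 28 genes reported as targets of PPARγ, PRDM16, EBF2 or C/EBP proteins, 5 fell and 0 rose, at a median of −0.15. Of all tested genes, 1.01% were called lower and 1.21% higher. The target list shares 9 genes with the 10 brown adipocyte markers above, Otop1 and Plin1 among them. Elovl3, a fatty acid elongase gene, was at 17.6% of its WT mean, Agpat2 of triglyceride synthesis at 21.7%, the proton channel gene Otop1 at 35.2%, the lipid droplet coat gene Plin1 at 37.9% and the acyl-CoA synthetase gene Acsl1 at 62.0% (limma, adjusted p 0.0151, 0.0417, 0.0243, 0.0267 and 0.0417). The other 23 did not pass, and of the 28 log2 fold changes 17 lay below 0 and 11 above. At an unadjusted p under 0.05 in limma 9 of the 28 were lower and 0 higher, against 8.6% and 10.6% of all tested genes. Among the 23, the uncoupling protein gene Ucp1 was at 48.9% of its WT mean without overlap (limma log2 fold change −1.08, adjusted p 0.0804), the fatty acid binding protein gene Fabp3 at 43.1% (limma, −1.18, adjusted p 0.118) and the glycerol kinase gene Gk at 53.2% (limma, −0.87, adjusted p 0.150). Fabp4, another fatty acid binding protein gene, had a log2 fold change of −0.07 (limma, adjusted p 0.850), and Cidea, often read as a mark of PRDM16 activity, of 0.13 (limma, adjusted p 0.747). These genes were partly known to move from earlier results of the same libraries. Each of the 10 named genes that passed in these lists lost the threshold in 3 to 9 of its alternatives. Without WT replicate 2 or WT replicate 3, 0 of the 10 passed (limma, lowest adjusted p 0.0740 and 0.0810), while 6 passed without WT replicate 1 and 7, 2 and 3 without KO replicates 1, 2 and 3.

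**Figure D4:**
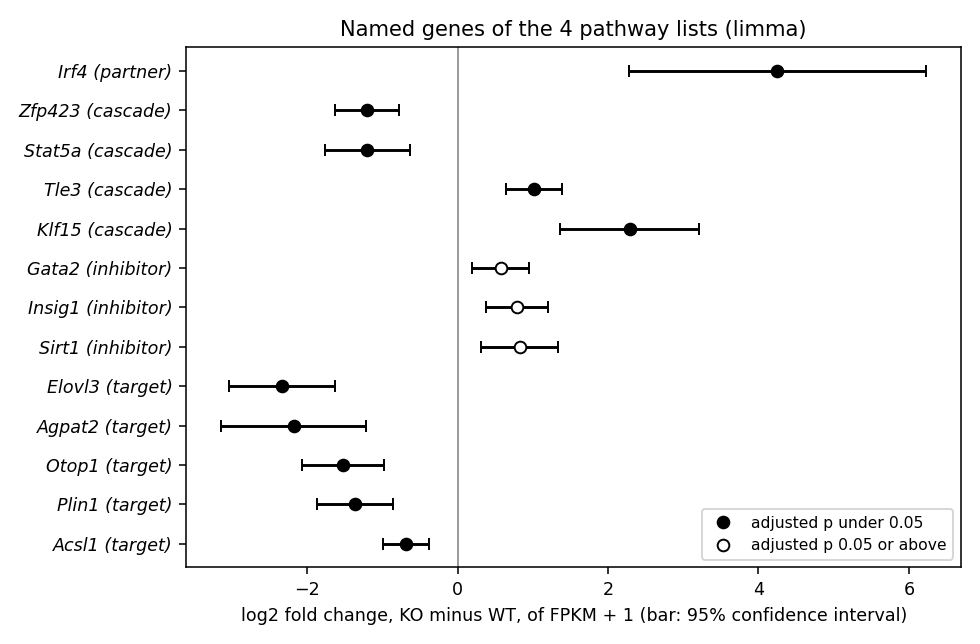
Log2 fold change of FPKM + 1, KO minus WT (horizontal axis), with 95% confidence intervals, of the named genes in the lists of brown fate partners, adipogenic cascade, adipogenesis inhibitors and reported targets. Filled circles passed an adjusted p of 0.05 in limma and open circles did not: the 5 targets, Zfp423 and Stat5a lie below 0, and Irf4, Tle3 and Klf15 above it.

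Markers of other cells were measured in the same libraries. Preadipocyte and fibroblast markers (10 genes) summed to 764 to 980 FPKM in WT and 821 to 1324 in KO, and macrophage markers (8 genes) to 90.1 to 137 and 119 to 171. All 8 macrophage markers had a log2 fold change above 0, as did 6885 of the 13331 tested genes. Among the 8, 0 were called, against 2.21% of all tested genes. In 3 of the 8 every KO library lay above every WT library, against 13.6% of all tested genes. Endothelial markers (8 genes) summed to 495 to 654 FPKM in WT and 512 to 565 in KO, and white adipocyte markers (8 genes) to 115 to 253 and 195 to 223. Skeletal muscle marker sums overlapped too, at 1469 to 2159 FPKM in WT and 389 to 1955 in KO. All 10 muscle markers had a log2 fold change below 0, as did 6446 of the 13331 tested genes. Among the 10, 0 were called and 0 were without overlap, against 2.21% and 24.9% of all tested genes. The low muscle sum was that of KO replicate 1 (389 FPKM), and KO replicates 2 and 3 held 1632 and 1955. Epidermal markers (8 genes, with Krt5, Krt14, Krt1 and Lor at 0 in at least 1 library) came to at most 6.75 FPKM, and neural and Schwann markers (8 genes) to at most 28.9, with Tubb3, Elavl3 and Elavl4 at 0 in at least 1 library. Myogenic precursor markers (6 genes, with Pax3 and Pax7 at 0 in at least 1 library) did not overlap between the groups. They summed to 5.65 to 6.77 FPKM in WT and to 0.65, 5.43 and 4.97 in KO replicates 1 to 3. The part of these cells in the differences of the 10 genes was not tested.

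**Figure D5:**
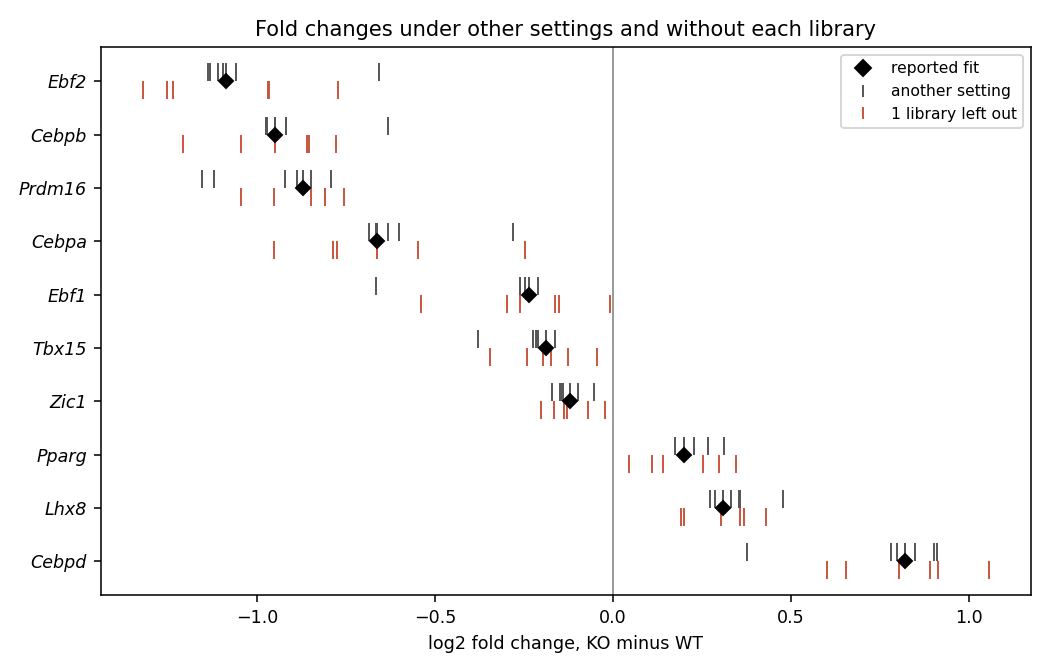
Log2 fold change, KO minus WT (horizontal axis), of each of the 10 genes in the reported fit (diamond), under other settings (grey ticks) and with 1 library left out (red ticks). No tick crosses 0, and Cebpa moves most when a library is left out, from −0.95 to −0.25.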

How the data were processed

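RNA from the interscapular brown fat of 6 newborn mice or pools was sequenced, with 3 libraries labelled WT and 3 labelled KO, and groups were taken from the titles. The deposited table holds FPKM values per gene and library, per the file headers, rounded to 2 decimals. HISAT2 2.0.4, Bowtie2 2.2.5, DESeq2 and the build mm10 are named in the submitters' processing notes without a role, and strand handling and filters are not given in the sources used here. FPKM are not counts, so the values were tested as log2(FPKM + 1) with limma 3.58.1 in R 4.3.3 (lmFit, eBayes with trend) over the 13331 genes that averaged 0.5 FPKM or more, with Benjamini-Hochberg adjustment at 0.05. The fit was tested on simulated data.

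Depth was estimated from the steps between low values, using single-transcript genes 500 to 1300 nt long (50 nt subtracted). Of these values, 78.0% to 82.3% came within 0.2 of whole reads, against 44.3% to 48.1% with shuffled lengths. No count test was run, since these steps were found for short, low genes only. Reads behind a member were estimated from its shortest transcript, or from the gene's span where the GENCODE vM21 transcript was longer (Cebpd). Positions and upstream sequences came from RefSeq tables of GRCm38.p6, the assembly that mm10 names.

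The genes, gene lists and tests were chosen with earlier results of these data known. Named were the 10 genes, Fstl1, the sex check genes and, from each of 4 pathway lists, the genes past the threshold or otherwise the 3 with the smallest p. Tmem189, Spidr, Zic4, Ucp1, Fabp3, Gk, Plin5, Fabp4 and Cidea, and the genes in the other observations, were named after their values were seen. Alternatives were a pseudocount of 0.1 or 0.01, filtering at 5 FPKM or not at all, quantile normalization, a common sum, median-of-ratios scaling, eBayes without trend, robust eBayes, array weights, the replicate block, and leaving out each library. Figures were drawn with matplotlib 3.10.9.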

Additional observations from a re-analysis of the deposited data

How the results depend on the processing

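All 10 genes kept their direction in every alternative that tested them, 17 for 8 of the genes and 16 for Prdm16 and Zic1, which the filter at 5 FPKM removes. The number of the 10 that passed, 0 in the reported fit, was 1 with a filter at 5 FPKM (Cebpb), 1 each with quantile normalization, median-of-ratios scaling and robust eBayes (Prdm16), 1 with the replicate block (Ebf2), and 5 with array weights (Prdm16, Ebf2, Ebf1, Lhx8 and Cebpb). Without 1 library it was 0 to 2, with 2 (Prdm16 and Cebpb) only without KO replicate 1. The adjusted p in limma ran from 0.00751 to 0.188 for Prdm16, 0.0295 to 0.236 for Ebf2, 0.0326 to 0.193 for Cebpb and 0.089 to 0.292 for Cebpd over the alternatives. Among all tested genes 295 passed, with 35 under no filter, 191 with a common sum, 3181 with array weights, 167 with the replicate block, and 31 to 370 without 1 library (for WT replicates 2 and 3, 39 and 31, and for KO replicates 1, 2 and 3, 121, 89 and 87). What caused these differences in count was not tested. The 5 ratios kept their direction with a pseudocount of 1 and without each library.

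Same-numbered WT and KO libraries deviated together at correlations of 0.0433 to 0.0681 across genes, under the level taken to show pairing, though each exceeded the highest correlation with another number, 0.0292. The replicate block left Prdm16 at an adjusted p of 0.0546 in limma and gave Ebf2 0.0295.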

Other observations

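Markers of other cell types held 2 further genes that passed the threshold. They were 1 of 10 tested preadipocyte and fibroblast markers, called higher, and 1 of 5 tested white adipocyte markers, called lower. Of all tested genes, 1.21% were called higher and 1.01% lower in KO. Ly6a, the Sca-1 antigen gene of stromal progenitors and endothelium, rose from an average of 25.9 FPKM to 51.9 in KO, a log2 fold change of 0.99 (limma, adjusted p 0.0333), while the preadipocyte genes Pdgfra and Dlk1 did not pass, with log2 fold changes of 0.32 and 0.02. Of the 10 genes in that list 7 were above 0 and 3 below, the lowest being Pi16 at −0.79 (limma, adjusted p 0.199). Lep, the leptin gene, fell from an average of 1.37 FPKM to 0.1 in KO, or 7.3% of the WT mean. Its log2 fold change was −1.07 (limma, adjusted p 0.0424), which the pseudocount of 1 shrinks because Lep is low. KO libraries were at 0.06 to 0.13 FPKM. The other 4 white adipocyte markers tested, of 8 listed, did not pass in limma, with log2 fold changes of 0.28 for Agt, 0.22 for Nnat, 0.20 for Retn and −0.01 for Hoxc8.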
